A study of Zea mays with 12 samples.

Results

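Among 17621 maize probe sets, 844 passed a minimum signal and were at least 2-fold apart between the inbreds B73 and Mo17 in immature ears. At 78 of these (9.24%) the mean hybrid lay closer to the lower parent than to the average of both parents. These 78 probe sets are described here. They were chosen by their own signals. Each array was scaled to one median, signals under 12 were set to 12, and genotype means were geometric. The lower parent had to reach a scaled signal of 50, the parental arrays had to lie apart, and the hybrids had to sit well below the midparent, the plain average of both parents. The last point was read from a position, in which the gap between the mean hybrid and the midparent is expressed in units of the gap between a parent and the midparent. A position of -1 is the lower parent, 0 the midparent and 1 the higher parent, and the members lie from -1.2 to -0.5. Parental differences and positions therefore chose the members, and they are given as descriptions with no test.

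The samples were young field-grown female inflorescences of 4 genotypes, the hybrid B73xMo17, the reciprocal hybrid Mo17xB73 and the inbred parents B73 and Mo17, with no treatment and no transgene. In maize notation a cross is written with its seed parent first. Each genotype had 3 biological replicates of 1 Affymetrix array each, and each replicate pooled 6 ears of 3.7 to 5.4 mm freed of husks and silks. Ears were taken on 3 consecutive days, but the labels do not tie replicates to days.

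A hybrid carries one copy of each gene from each inbred. If each copy is transcribed as it is in its own parent, the hybrid lies at the midparent, which is called additive expression. A level close to one parent is called dominant-like, and low-parent level is the case in which the hybrid is close to the parent with less transcript. In pooled tissue, fewer cells of a type and less RNA per cell cannot be told apart.

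The median signal as deposited ran from 123 to 231 between arrays. The brightest was B73 replicate 2, and its dimmest probe sets were also raised, with a 1st percentile of 3.90 where the other 11 arrays had 0.455 to 0.647. Within a genotype, arrays correlated at 0.9799 to 0.9947 in log2 signal, taken across probe sets, which are not replicates. Genes of other tissues that an ear sample could carry were also read. The median probe set of endosperm genes stood at the 14.96th percentile of signal, and the highest at the 52.4th. For pollen and anther genes the median was at the 12.6th and the highest at the 20.3rd. Leaf and husk genes had a median at the 48.4th percentile and reached the 86.1st, and the only probe set matched for silk was at the 56.9th. Of 20 tested probe sets of these tissues 1, that for silk, was parent-different and could have been a member, and it was not.

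The 78 members had positions with a median of -0.69, against -0.03 over all 844 parent-different probe sets. Most members lay between the midparent and the lower parent rather than at it: 31 had a position of -0.75 or less, and 8 were under -1. Another 679 parent-different probe sets lay between -0.5 and 0.5, 79 (9.36%) mirrored the members at high-parent level (0.5 to 1.2), 2 were below -1.2 and 6 above 1.2. Counted per 0.1 of position from -1.2 upwards, the members numbered 4, 4, 9, 5, 17, 13 and 26, and the next steps above -0.5 held 38 and 66 probe sets. The members thus form the lower tail of one continuous distribution, and the limits cut it at no gap.

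The upper limit passed through closely spaced probe sets, while few lay near the lower one. Just inside -1.2 were Zm.806.1.S1_at at -1.195 and gst5 at -1.16, and just outside were Zm.16805.3.S1_a_at at -1.28 and Zm.11758.1.A1_at at -1.72. Just inside -0.5 were Zm.13239.3.S1_at at -0.5012 and Zm.3423.1.A1_at at -0.5023, and just outside were Zm.3699.4.S1_at at -0.4999 and Zm.18455.1.A1_at at -0.494.

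Members had modest parental differences. Their median parental fold was 2.36 (range 2.00 to 9.08), against 2.62 over all parent-different probe sets, whose largest was 61.1. A difference of 4-fold or more was found in 8 members (10.3%) and in 184 of 844 parent-different probe sets (21.8%), and 62 members were under 3-fold. The lower parent had a median scaled signal of 125 in members (51.0 to 2933) and 133 over all. B73 was the lower parent in 58 members (74.4%) and Mo17 in 20, while B73 was lower in 401 of the 844 (47.5%). This excess of B73 depends on how the arrays are scaled, as described further on.

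Few probe sets carry a gene name in the platform annotation: 13 of the 78 members, of 12 genes, and 73 of all 844 parent-different probe sets. All 13 were taken as named members. With B73 as the lower parent these were genes of asparagine synthesis, protein folding, inositol synthesis, water transport, detoxification and cell death control. With Mo17 lower they were genes of peroxide breakdown, stress transcription, defence, sucrose cleavage and abscisic acid response. Signals below are scaled signals in arbitrary units, with the arrays in the order of replicates 1, 2 and 3.

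The gene asn1 encodes an asparagine synthetase, which makes the nitrogen-rich amino acid asparagine. Its signals were 298, 338 and 155 in B73xMo17, 35.1, 138 and 151 in Mo17xB73, 65.3, 97.0 and 64.4 in B73, and 784, 756 and 515 in Mo17. All hybrid arrays lay below all Mo17 arrays. They also lay above all B73 arrays, except Mo17xB73 replicate 1, at 35.1, which lay below them. The parents differed 9.08-fold, the largest difference of any member, and the position was -0.68, made up of -0.41 for B73xMo17 and -0.95 for Mo17xB73. Another probe set of asn1, Zm.14903.1.A1_at, was dim, with geometric means of 27.5 in B73xMo17, 15.2 in Mo17xB73, 18.6 in B73 and 59.2 in Mo17, too low for the rule.

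Both parent-different heat shock genes were members, with B73 lower. The gene hsp101 encodes a ClpB-type chaperone that pulls aggregated proteins apart, and had signals of 1968, 2052 and 3021 in B73xMo17, 1778, 2070.3 and 1325 in Mo17xB73, 754, 2047 and 2776 in B73, and 6224, 3878 and 4758 in Mo17. The hybrid arrays overlapped with B73, whose own arrays spread widely, and all lay below Mo17. The parental fold was 2.99 and the position -0.77. Without B73 replicate 1, the lowest array, hsp101 was no longer a member.

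The small heat shock protein gene hsp18c, whose product holds unfolding proteins in solution, had signals of 747, 725 and 1630.4 in B73xMo17, 409.8, 645 and 220.2 in Mo17xB73, 351, 623 and 758 in B73, and 1924, 1265 and 1516 in Mo17. One B73xMo17 array reached the Mo17 range, and the other 5 hybrid arrays lay below the midparent. The position of -0.75 averages -0.18 for B73xMo17 and -1.32 for Mo17xB73, so the mean describes neither hybrid closely. The other kept probe set in the cluster of hsp18c, named hsp18f, was far brighter, at 5694 in B73 and 8371 in Mo17. It was not parent-different, with a parental log2 difference of -0.56 and a position of -1.88.

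The gene INO1, by its name encoding the synthase that makes inositol phosphate from glucose phosphate, had signals of 1203, 1075 and 1167 in B73xMo17, 1109, 808 and 979.8 in Mo17xB73, 902, 718 and 1125 in B73, and 1757, 2243 and 2488 in Mo17. Hybrid arrays were tightly grouped within or just above the B73 range and clear of Mo17. Its parental fold was 2.38 and its position -0.75. As deposited, without scaling, the parents differed 1.78-fold and INO1 was not a member.

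The aquaporin gene PIP1-3, also listed as PIP1-4, encodes a plasma membrane channel of the water channel family and was a member through a pair of probe sets that share a sequence number. The first, Zm.16315.1.S1_a_at, had signals of 1643, 1322 and 1415 in B73xMo17, 1276, 1318 and 1398 in Mo17xB73, 1127, 983 and 1331 in B73, and 2624, 2225 and 2295 in Mo17. The second, Zm.16315.1.S1_x_at, ran from 916 to 1021 in B73xMo17, from 842 to 924 in Mo17xB73, from 630.1 to 857 in B73 and from 1496 to 1618 in Mo17. In both, hybrid arrays overlapped with B73 or lay just above it, and were far below Mo17, at positions of -0.59 and -0.52 with parental folds of 2.09 and 2.19.

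The glutathione transferase gene gst5, of the family that couples glutathione to toxic compounds, had signals of 153, 103 and 136 in B73xMo17, 115, 83.1 and 77.6 in Mo17xB73, 107, 134 and 122 in B73, and 254, 253 and 273 in Mo17. B73xMo17 covered the B73 range, while Mo17xB73 lay mostly below it. Its position, -1.16, was -0.89 for B73xMo17 and -1.44 for Mo17xB73. The other kept probe sets in the cluster of gst5 were far brighter, at 4232 and 6741 in B73. They were not parent-different, with parental log2 differences of -0.08 and -0.20, and their positions of 2.28 and 0.82 were above the midparent. The gene lls1 (lethal leaf spot 1), which restrains cell death in leaves, had 147, 147 and 139.5 in B73xMo17, 139, 138 and 129 in Mo17xB73, 93.2, 151 and 97.1 in B73, and 228, 236 and 220.2 in Mo17. Its position of -0.51 is close to the limit, and it was a member in 6 of the 12 settings that leave out 1 array. As deposited, the parents differed 1.608-fold for gst5 and 1.53-fold for lls1, and neither was a member.

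Of the members with Mo17 lower, the catalase gene CAT3, whose enzyme breaks down hydrogen peroxide, had the most even hybrids. Its signals were 122, 121 and 116 in B73xMo17, 128, 114 and 131 in Mo17xB73, 321, 302 and 329 in B73, and 102, 63.5 and 51.2 in Mo17. Every hybrid array lay above every Mo17 array and far below every B73 array, at array positions from -0.64 to -0.50. The parents differed 4.58-fold. CAT3 was not a member when the midparent and position were taken on the log2 scale. Neither was any other member with a parental fold of 4 or more, asn1 included. Of the named genes, DREB2A, PIP1-3, gst5 and lls1 were not members on that scale either.

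DREB2A encodes a transcription factor of the AP2/ERF family known for drought and heat responses. It had signals of 99.4, 109 and 123 in B73xMo17, 145, 125 and 129 in Mo17xB73, 204, 278 and 246 in B73, and 92.8, 99.4 and 83.7 in Mo17. The Mo17xB73 arrays lay above all Mo17 arrays, those of B73xMo17 touched the Mo17 range, and none reached B73. Its parental fold was 2.62 and its position -0.60.

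The gene glu1 encodes a beta-glucosidase that releases defensive benzoxazinoids from their stored glucosides, and had 314, 308 and 250.2 in B73xMo17, 269.6, 250.4 and 203 in Mo17xB73, 556, 507 and 961 in B73, and 252, 286 and 234 in Mo17. The hybrid arrays spanned the Mo17 range and stayed clear of B73, with a parental fold of 2.52 and a position of -0.96. None of the other kept probe sets in the cluster of glu1 was parent-different, with parental log2 differences from -0.38 to 0.38. Most were far brighter, and the brightest had 6799 in B73 and 8621 in Mo17. The low-parent level of glu1 thus rests on this probe set alone. The sucrose synthase gene sus2, whose enzyme splits sucrose for growth, had 68.2, 62.3 and 68.5 in B73xMo17, 100.1, 76.3 and 56.4 in Mo17xB73, 109.6, 142 and 179 in B73, and 97.9, 55.0 and 52.9 in Mo17. Its hybrids also overlapped with Mo17, at a position of -0.86, with the lowest B73 array only slightly above the highest hybrid array.

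The gene asr1, also listed as aba1, belongs to the abscisic acid, stress and ripening family. Zm.6532.1.A1_a_at had signals of 98.9, 70.1 and 98.2 in B73xMo17, 106, 88.5 and 69.5 in Mo17xB73, 182, 139 and 237 in B73, and 89.4, 95.6 and 76.1 in Mo17. The hybrids spanned the Mo17 range and stayed below B73, at a position of -0.98. Another probe set named for asr1, Zm.6532.1.A1_at, had geometric means of 482 in B73xMo17, 487 in Mo17xB73, 1120 in B73 and 35.3 in Mo17, a position of -0.17. The probe sets of asr1 thus disagree, and its low-parent level holds for the first alone.

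Members without a gene name made up most of the largest parental folds with either parent lower, after asn1. With B73 lower, Zm.8868.1.A1_at had 57.5, 74.2 and 78.5 in B73xMo17, 79.5, 136 and 82.2 in Mo17xB73, 65.1, 40.7 and 62.1 in B73, and 353, 249 and 199 in Mo17, a fold of 4.74 and a position of -0.73. All its hybrid arrays but 1 lay within or near the B73 range and all were clear of Mo17. Zm.17265.1.A1_at had 81.5, 77.5 and 71.2 in B73xMo17, 75.01, 71.9 and 73.3 in Mo17xB73, 68.6, 51.3 and 56.5 in B73, and 261, 207 and 178 in Mo17. Its 6 hybrid arrays were as even as those of CAT3, at array positions from -0.83 to -0.70, with a parental fold of 3.64. Zm.3693.1.A1_at was 3.78-fold apart at a position of -1.01, with hybrid arrays from 161 to 343 in B73xMo17 and from 123 to 242 in Mo17xB73, B73 from 149 to 395 and Mo17 from 656 to 1018.

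With Mo17 lower, Zm.15293.1.S1_a_at differed 8.24-fold between the parents. It had 222, 235 and 248 in B73xMo17, 166, 166 and 201 in Mo17xB73, 651, 574 and 739 in B73, and 65.8, 68.4 and 109.6 in Mo17. No hybrid array reached either parent, and the position was -0.56. Zm.10088.1.A1_at followed with a fold of 5.74 and a position of -0.51, and its hybrid arrays, 126 to 182 in B73xMo17 and 121 to 175 in Mo17xB73, lay between B73 (351 to 445) and Mo17 (63.3 to 69.2). Zm.4882.2.S1_at had a fold of 5.20 and a position of -0.63. Its arrays were at 117, 124 and 76.9 in B73xMo17, 268, 224 and 83.4 in Mo17xB73, 532, 329 and 369 in B73, and 76.0, 59.4 and 102 in Mo17, so that the hybrids were uneven.

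Gene lists chosen with the tissue in mind held few members. Of 14 tested heat shock and chaperone probe sets, 2 were parent-different and both were members. The others fell short of a rule on the parents. Of these, chosen after its values were seen, hsp22 differed 1.96-fold between the parents and had a position of -0.93. Glutathione transferases had 1 member, gst5, among 6 parent-different of 15 tested probe sets, and nitrogen metabolism had asn1 among 2 of 8. In defence and benzoxazinoid synthesis the only parent-different probe set of 9, glu1, was a member, and so was CAT3 as the only one of 15 in redox and mitochondria. Sugar and starch metabolism had sus2 among 2 of 31. No member was found among 5 parent-different of 30 inflorescence and floral regulators, 3 of 31 translation, 4 of 41 cell wall and cytoskeleton and 1 of 46 chromatin probe sets. Against a background of 9.24% of parent-different probe sets, nothing is read from counts this small.

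Most members were low on every hybrid array, with a few single arrays standing apart. Across the hybrid arrays, 62 of 78 members lay below the midparent on all 6, against 20.4% of all parent-different probe sets. The hybrids were clear of the higher parent in 69 members (74.4% of all) and overlapped with the lower parent in 68 (14.6% of all). In 10 members all hybrid arrays were above the lower parent, against 720 of all 844 parent-different probe sets. In 0 members all were below it, against 1 of the 844. All of these counts follow in part from the rule. CAT3 was at -0.57, -0.58 and -0.62 on the B73xMo17 arrays and -0.53, -0.64 and -0.50 on those of Mo17xB73. By contrast, hsp18c was at -0.60, -0.65 and 1.17 on the B73xMo17 arrays and -1.28, -0.81 and -1.66 on those of Mo17xB73. The median SD of the position over the 6 hybrid arrays was 0.271 in members and 0.301 in the probe sets at high-parent level, against 0.222 over all parent-different probe sets.

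Taken apart, the hybrids had similar but not equal positions. B73xMo17 had a median position of -0.65 (-1.32 to -0.18) with 4 members under -1, and Mo17xB73 a median of -0.72 (-1.44 to -0.36) with 15 under -1. Each was inside the limits for 63 members, and both were for 50. The medians on single arrays were -0.65, -0.72 and -0.62 in B73xMo17 and -0.61, -0.71 and -0.86 in Mo17xB73, so that Mo17xB73 replicate 3 was the lowest array and the others overlapped. Over all parent-different probe sets the same arrays had medians from -0.04 to 0.02.

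The difference between the reciprocal hybrids is the comparison that the rule did not use, and it was tested with limma over 11126 probe sets, among them all 78 members. At an adjusted p under 0.05 no probe set was called (0%), and so 0 members did, with a smallest adjusted p of 0.9998. At an unadjusted p under 0.05 limma gave 6 members, 5 of them higher in B73xMo17, against 2.01% of all probe sets (1.14% higher and 0.872% lower). Members had a median log2 difference, B73xMo17 minus Mo17xB73, of 0.07, against 0.02 over all tested. It was 0.09 for members with B73 lower, of which 38 of 58 were positive, and -0.01 for those with Mo17 lower, of which 10 of 20 were. Over all probe sets 56.1% were positive. Hybrid arrays did not overlap in 12 members, 9 higher (5.04% of all) and 3 lower (3.86% of all) in B73xMo17. Members also had wider errors, with a median SE of 0.21 against 0.13 over all.

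Differences over 2-fold were found in asn1 and hsp18c, against 0.0809% of all probe sets. Both were higher in B73xMo17 on every array than on any Mo17xB73 array. The log2 difference was 1.47 ± 0.44 (SE) for asn1, with a 95% interval of 0.53 to 2.41 in limma, and 1.31 ± 0.38 (0.50 to 2.12) for hsp18c. Neither passed after adjustment over all probe sets (adjusted p = 0.9998 in limma for both, unadjusted 0.00465 and 0.00371). Without scaling, 6 probe sets passed (0.0539%), and asn1 and hsp18c were among them, at 1.54 (adjusted p = 1.54e-05 in limma) and 1.38 (adjusted p = 9.03e-05). In that fit limma pooled the spread fully over probe sets (infinite prior degrees of freedom, against 6.32 after scaling), so that a probe set's own spread did not enter its p. Without Mo17xB73 replicate 1, its lowest array, the scaled difference of asn1 was 0.79, and that of hsp18c was 0.93 without B73xMo17 replicate 3 and 0.90 without Mo17xB73 replicate 3.

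The smallest unadjusted p among members belonged to Zm.8383.1.A1_at, with B73 lower. Its signals were 179.6, 192 and 165 in B73xMo17, 105, 128 and 151 in Mo17xB73, 127, 135 and 111 in B73, and 258, 284 and 254 in Mo17. B73xMo17 lay above B73 while Mo17xB73 overlapped with it, a log2 difference of 0.49 ± 0.14 (SE; 0.20 to 0.79; unadjusted p = 0.00297, adjusted p = 0.9998 in limma). For gst5 the difference was 0.51 ± 0.17 (0.14 to 0.88; unadjusted p = 0.0103 in limma), and its hybrid arrays overlapped.

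Small reciprocal differences were estimated for CAT3, -0.06 ± 0.19 (-0.46 to 0.35), for Zm.17265.1.A1_at, 0.06 ± 0.17, and for asr1, 0.02 ± 0.21. These intervals leave room for moderate differences in either direction. The difference for hsp101 was 0.44 ± 0.36 (-0.32 to 1.21), for INO1 0.26 ± 0.17, for glu1 0.28 ± 0.20, for sus2 -0.19 ± 0.26 and for DREB2A -0.27 ± 0.14 (-0.57 to 0.03). None of these passed in limma, all at an adjusted p of 0.9998.

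To read positions on arrays that took no part in the choice, the rule was also applied to the arrays of 2 replicate numbers and the position read on the 4 arrays of the remaining number. With replicates 1, 2 and 3 left out in turn, 74, 114 and 93 probe sets were chosen. Their median position was -0.65, -0.66 and -0.64 on the arrays that chose them, and -0.39, -0.52 and -0.69 on the arrays left out. The scatter was wide, with quartiles of -0.67 and -0.09, of -0.98 and -0.0048, and of -1.18 and -0.42. All parent-different probe sets chosen in the same way had left-out medians of 0.00, 0.01 and -0.05, and those at high-parent level 0.42, 0.53 and 0.59. On the left-out arrays 59 (79.7%), 86 (75.4%) and 85 (91.4%) of the chosen probe sets had a negative position. Among all parent-different ones 49.9%, 48.6% and 53.7% did. The lower parent was set by the arrays that chose them, so a negative position lies on that parent's side of the midparent.

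Far fewer stayed within the limits from -1.2 to -0.5: 25 (33.8%), 35 (30.7%) and 38 (40.9%), against 9.26%, 8.83% and 12.8% of all parent-different probe sets. The direction towards the lower parent was thus found again on unused arrays in most probe sets, and the exact range in a minority.

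The membership and above all the split by lower parent moved with the scaling of the arrays. As deposited, with B73 arrays the brighter ones on average, 106 probe sets met the rule, 18 with B73 lower (16.98%) and 88 with Mo17 lower, among 1098 parent-different probe sets of which B73 was lower in 18.2%. They shared 33 probe sets with the 78 members, 42.3% of the 78 and 31.1% of the 106, and all 20 members with Mo17 lower were among them. With quantile normalization 68 met the rule, 42 with B73 lower (61.8%) and 26 with Mo17 lower, and 56 were shared. With scaling to the median of the probe sets kept for testing, a scaling added after the data were seen, 60 met it, 38 with B73 lower (63.3%) and 22 with Mo17 lower, and 54 were shared. Among all parent-different probe sets B73 was lower in 42.5% and 41.4% under these scalings. The median log2 difference between B73 and Mo17 over tested probe sets was 0.28 as deposited, -0.14 after scaling to one median, -0.04 with quantile normalization and -0.05 with the median of probe sets kept. B73 was thus the lower parent in most members under the last 3 scalings and in a minority as deposited.

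In all 4 scalings 26 members met the rule, 12 with B73 lower and 14 with Mo17 lower. They include asn1, hsp101, hsp18c, CAT3, DREB2A, glu1, sus2 and asr1, and leave out INO1, PIP1-3, gst5 and lls1. Of the 78, 25 met the rule with any single array left out, 19 with B73 lower and 6 with Mo17 lower.

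Some members share a cluster number, which marks sequences that the array's designers grouped together, so the 78 members stand for 73 clusters. In 5 clusters there was more than 1 member. Zm.7040.1.S1_at and Zm.7040.1.S1_x_at had positions of -1.08 and -1.01. The other kept probe sets of that cluster, on Zm.7040.2, had positions of -0.64, -0.67 and -0.73. Their parental log2 differences were -0.99, -0.82 and -0.87, all short of the 2-fold limit and only the first close to it. The pairs on Zm.5851.15 and Zm.7117 had positions of -0.70 and -0.93, and of -0.83 and -0.59. The aquaporin cluster's other probe sets had -0.87 and -0.49, and Zm.6532.6.A1_at, in the cluster of asr1, had -1.10.

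Across clusters, 18 held 56 other kept probe sets, of which 32 differed between the parents in the direction of their member. Of 9 with at least a 2-fold difference, 5 had that direction. The 6 others that were parent-different had positions from -0.39 to 0.07, none at low-parent level. One is Zm.16594.2.S1_at, at 897 in B73xMo17, 911 in Mo17xB73, 51.7 in B73 and 1846 in Mo17, a position of -0.05, while Zm.16594.1.A1_at of the same cluster is a member at -0.61. It was not tested whether the probe sets of a cluster read one transcript.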

How the data were processed

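The values were deposited as intensities, 1 linear signal per probe set and array from MAS5, per the submitters' processing notes; its version and scaling target were not found in the sources used here. Of 17734 probe sets, 113 controls were left out. Arrays were scaled to a common median of 154.9, signals under 12 set to 12, and genotype means were geometric. The members and gene lists were chosen with earlier results of these data known. For tests, probe sets above the 40th percentile of their array on at least 3 of 12 arrays were kept (11126) and a mean per genotype was fitted to log2 signals by limma 3.58.1 (R 4.3.3; lmFit and a trended eBayes), Benjamini-Hochberg adjusted over all, threshold 0.05. The fit was tested on simulated data of 11175 probe sets. There, 97% of 100 probe sets changed by a log2 value of 1 between the hybrids were recovered, and 100% of those changed by 2. The changed probe sets were drawn from those above the 40th percentile on all 12 arrays, with independent noise and 200 changes at once. Members had wider errors than most probe sets, so these figures do not give the recovery of a change in members. Positions were computed in Python 3.11.15. The text names all members with 1 gene, the 4 largest parental folds with each parent lower, the 4 smallest p between reciprocal hybrids, the probe sets nearest each limit and members that share a cluster.

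Gene names come from the platform annotation (1452 probe sets with 1 gene, 1 with several, 16168 with none), of which 1377 were found in a RefSeq table (Zm-B73-REFERENCE-NAM-5.0, used for names only). Unnamed probe sets may well have a gene. Alternatives were values as deposited, quantile normalization, other floors and thresholds, a log2 midparent, a replicate block and leaving out each array. The small number of arrays limits the precision.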

Additional observations from a re-analysis of the deposited data

How the results depend on the processing

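The number of members, 78, was within 1.5 times under a floor of 24 (78), arithmetic means (81), parents called in limma (77), the mean level (80), quantile normalization (68) and values as deposited (106), and ranged from 72 to 102 with single arrays left out. It was 35 with the midparent and position on the log2 scale, 47 with a lower parent of at least 100, 16 with parents at least 3-fold apart and 50 with each hybrid within the limits. Members with B73 lower, 58, became 18 as deposited, 42 with quantile normalization, 28 on the log2 scale, 39 with a lower parent of at least 100, 10 at 3-fold, 39 with each hybrid within the limits and 38 with scaling to the median of the probe sets kept, which was chosen after seeing the data, and ranged from 51 to 82 with single arrays left out. Under all 23 alternatives 2 members remained, Zm.3693.1.A1_at and Zm.9477.1.A1_at. The pooled median position on left-out arrays was -0.55, from -0.39 to -0.69 by the number left out, -0.45 as deposited and -0.61 with a lower parent of at least 100. Between the reciprocal hybrids limma called 0 probe sets and 0 members, against 6 and 2 as deposited, and 0 to 1 probe sets with single arrays left out (1 without B73xMo17 replicate 2). With the replicate number as a block limma called 0 and 0, with 266 and 7 at an unadjusted p under 0.05; deviations of same-numbered arrays correlated from -0.09 to 0.46 (11 of 18 over 0.1), 10 of 12 arrays correlated best with their own number, and the numbers were not taken as pairs. For the 30 named members, asn1 and hsp18c passed in limma as deposited, where the spread was fully pooled. In 8 other pairs of member and left-out array the difference moved by more than its SE without passing, among them Zm.806.1.S1_at, at 0.82 without Mo17xB73 replicate 1 and -0.35 without Mo17xB73 replicate 3. The cause of these changes was not tested. The lower parent was as dim as 51.0 in members, and how far dimness limits the positions was not tested.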
